A study of Mus musculus with 6 samples.

Results

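Regions of open chromatin that were called in every library of a hematopoietic stem cell (HSC) ATAC-seq series and that lie at the ends of protein-coding genes are described here. A region was a member if the peak lists of all 6 libraries, merged where they overlapped by 1 bp or more, each held a peak in it, and if it lay within 1 kb of the start or end coordinate of a protein-coding gene in the RefSeq table for GRCm38.p6 (mm10). Of 82993 merged regions, 20810 were called in all 6 libraries, and 9075 of these (43.6%) were members. The other 11735 regions called in all 6 libraries serve as the comparison. Members were thus chosen by measured values, the peak calls of all 6 libraries, and by distance to a gene end, so neither was tested.

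The study measured accessibility in CD48-CD150+LSK bone marrow cells, the gate used for mouse HSCs, sorted from wild-type C57BL/6J mice. One group of 3 libraries came from mice given DMSO, the vehicle, by intraperitoneal injection (DMSO 1 to 3), and the other group of 3 from mice given 2 mg/kg tunicamycin by the same route (tunicamycin 1 to 3). Each library was made from about 5000 cells. The labels give neither the age of the mice nor the time between injection and sorting, nor whether each library came from its own animals, so the p-values given speak only of how these 6 libraries vary, and that variation may be technical.

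ATAC-seq uses a transposase that inserts sequencing adapters where DNA is not covered by nucleosomes, and peaks mark stretches with many insertions. Promoters of active genes hold a nucleosome-depleted stretch at the transcription start, where general factors and RNA polymerase II assemble. Many mammalian promoters are CpG islands, rich in unmethylated CpG dinucleotides and bound by factors such as SP1 (GC box), NFY (CCAAT box), ETS proteins, NRF1 and YY1, and they often fire in both directions. Tunicamycin blocks the first step of N-linked glycosylation, so that unfolded proteins build up in the endoplasmic reticulum (ER). The unfolded protein response then acts through the sensors IRE1 (Ern1), PERK (Eif2ak3) and ATF6, and ATF6 acts with NFY at the ER stress response element (ERSE) in promoters of ER chaperone genes.

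Promoter sequences show what kind of DNA the regions hold. The first set comes from genes of ER protein folding and degradation whose 300-base promoter (250 bases before the start and 50 after it, RefSeq, GRCm38.p6, printed 5′ to 3′ on the gene's strand) holds the ERSE letters, CCAAT and CCACG with a spacer of 9 bases between them, on either strand, given in capitals with the spacer. All 300 bases of each lay inside a region called in all 6 libraries. Hspa5 (chr2:34771840-34772139, plus strand) encodes the chaperone BiP, the main target of the response. Canx (chr11:50325624-50325923, minus strand) encodes calnexin, Derl3 (chr10:75893148-75893447, plus strand) a channel-associated protein of ER-associated degradation, and Creld2 (chr15:88819396-88819695, plus strand) an ER-resident protein induced by ER stress.
Hspa5: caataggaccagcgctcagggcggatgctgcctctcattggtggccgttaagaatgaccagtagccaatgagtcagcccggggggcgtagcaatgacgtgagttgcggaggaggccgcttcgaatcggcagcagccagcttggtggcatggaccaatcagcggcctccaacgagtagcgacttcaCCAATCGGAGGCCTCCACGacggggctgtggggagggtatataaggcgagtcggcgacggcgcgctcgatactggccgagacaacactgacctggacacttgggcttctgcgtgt
Canx: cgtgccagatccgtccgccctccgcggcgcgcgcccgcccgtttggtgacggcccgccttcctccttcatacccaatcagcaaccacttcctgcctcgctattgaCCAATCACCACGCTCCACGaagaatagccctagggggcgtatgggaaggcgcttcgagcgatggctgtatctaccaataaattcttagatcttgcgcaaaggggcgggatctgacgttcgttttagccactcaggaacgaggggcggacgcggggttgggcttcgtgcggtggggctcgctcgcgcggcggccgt
Derl3: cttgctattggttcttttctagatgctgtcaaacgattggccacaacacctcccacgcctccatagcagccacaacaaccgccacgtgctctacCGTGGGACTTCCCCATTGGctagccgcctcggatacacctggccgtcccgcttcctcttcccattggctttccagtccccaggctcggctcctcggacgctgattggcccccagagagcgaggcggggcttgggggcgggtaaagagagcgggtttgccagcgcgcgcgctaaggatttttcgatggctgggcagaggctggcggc
Creld2: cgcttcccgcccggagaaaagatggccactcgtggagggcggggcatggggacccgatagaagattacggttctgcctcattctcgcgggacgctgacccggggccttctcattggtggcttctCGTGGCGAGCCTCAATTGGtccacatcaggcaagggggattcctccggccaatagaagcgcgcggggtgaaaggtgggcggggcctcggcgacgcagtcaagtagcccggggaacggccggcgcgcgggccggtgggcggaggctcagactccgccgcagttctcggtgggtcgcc

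The second set contrasts strong and weak promoters, with CCAAT (or ATTGG on the other strand) and the ETS letters CCGGAAG in capitals. Wdr19 (chr5:65199446-65199745, plus strand), which encodes an intraflagellar transport protein, and Prpf8 (chr11:75486527-75486826, plus strand), which encodes the central spliceosome protein, had ranks above the 99th percentile in every library. Zfp36 (chr7:28379179-28379478, minus strand) encodes an mRNA decay factor of the immediate early response and lay at the bottom of the ranking. Chac1 (chr2:119350992-119351291, plus strand) encodes a glutathione-degrading enzyme induced downstream of ATF4, and its region ranked higher in all tunicamycin libraries than in any DMSO library. These 8 genes were chosen after their values were seen.
Wdr19: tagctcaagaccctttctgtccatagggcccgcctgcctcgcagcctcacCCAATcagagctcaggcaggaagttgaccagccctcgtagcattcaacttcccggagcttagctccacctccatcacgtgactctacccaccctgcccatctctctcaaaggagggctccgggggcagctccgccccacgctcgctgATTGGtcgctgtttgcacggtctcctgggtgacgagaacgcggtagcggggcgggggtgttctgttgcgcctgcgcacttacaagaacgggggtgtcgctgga
Prpf8: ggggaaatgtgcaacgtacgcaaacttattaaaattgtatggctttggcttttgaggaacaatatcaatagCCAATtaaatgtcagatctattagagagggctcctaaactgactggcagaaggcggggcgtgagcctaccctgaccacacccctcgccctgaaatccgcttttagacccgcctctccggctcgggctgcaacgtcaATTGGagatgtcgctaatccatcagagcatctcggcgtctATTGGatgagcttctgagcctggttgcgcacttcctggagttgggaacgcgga
Zfp36: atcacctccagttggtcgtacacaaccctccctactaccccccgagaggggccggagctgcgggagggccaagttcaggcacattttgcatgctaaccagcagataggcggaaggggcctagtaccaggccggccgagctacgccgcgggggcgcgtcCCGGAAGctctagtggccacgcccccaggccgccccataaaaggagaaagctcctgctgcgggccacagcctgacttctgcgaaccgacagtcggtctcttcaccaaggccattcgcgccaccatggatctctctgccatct
Chac1: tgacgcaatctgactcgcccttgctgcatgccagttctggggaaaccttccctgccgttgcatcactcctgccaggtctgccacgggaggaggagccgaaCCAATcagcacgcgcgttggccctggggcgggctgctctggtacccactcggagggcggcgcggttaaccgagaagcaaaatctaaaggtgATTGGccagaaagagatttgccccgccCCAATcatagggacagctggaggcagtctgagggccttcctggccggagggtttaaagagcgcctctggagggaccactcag

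The printed windows held more CpG than the median promoter of the table. Hspa5 held 25 CpG dinucleotides, Canx 35, Derl3 22 and Creld2 33. The median was 13 over all 21262 promoters of the table and 22 over promoters in members. Wdr19 held 20, Prpf8 16, Zfp36 21 and Chac1 17, each below the median of promoters in members. Wdr19 had 2 CCAAT boxes, Prpf8 3 and Chac1 3, each with none of the ETS letters, whereas Zfp36 had 1 ETS match and no CCAAT box.

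Gene ends were a larger part of the regions the more libraries called them. Regions at a gene end made up 19.4% of all merged regions. Their share was 8.79% among regions called in exactly 1 library, 11.0% in exactly 2, 12.3% in 3, 12.9% in 4, 17.5% in 5 and 43.6% in 6. Read from the other side, 56.2% of the 16135 gene-end regions were called in all 6 libraries, against 17.6% of regions elsewhere. A further 1531 gene-end regions were called in exactly 5 libraries, and 1259 of these were absent from the DMSO 3 list alone, so without that library there would be 10332 members. Regions called in 5 libraries were weaker and narrower in the libraries that had them, with a median percentile in their own lists of 42.6 and a median width of 425 bp, against 81.1 and 727 bp for members.

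Most members held the gene end itself. A gene end lay inside 7711 members (85.0%), another 189 had one within 100 bp outside, and 610 were over 500 bp from the nearest. A single gene lay near each of 7398 members, 1632 members had 2 genes, 43 had 3, 1 had 4 and 1 had 5. Strand is known from the promoter table for 17491 genes, and among members with known strands 6411 lay at gene starts only, 351 at the far (3′) ends only, and 464 near both a start and a far end. Strand was not known for a gene of the other 1849. Starts of genes on opposite strands shared 870 members, called divergent here whatever the order of the starts and whether or not a far end was also near. Another 5578 lay at 1 gene start alone.

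In all, 9965 of 21883 protein-coding genes (45.5%) had a member. Of these genes 9160 had 1 member, 776 had 2, 28 had 3 and 1 had 4. The share was 47.0% for genes on autosomes and 25.5% for the 966 genes on the X chromosome. None of the 256 genes on the Y chromosome had one. The rule reads the outermost ends of each gene in the table, so a promoter inside a long gene span can be missed: 547 genes without a member had a promoter of the table in another region called in all 6 libraries. Ldha (lactate dehydrogenase A) was one of them, with its promoter in a region at chr7:46845516-46846576.

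Members were stronger than the other regions called in all 6 libraries. Strength is given as a percentile: within each library the 20810 shared regions were ranked by the authors' fold enrichment of their highest peak, so that a percentile compares the same regions in every list. The median percentile of members was 59.3 in DMSO 1, 64.7 in DMSO 2, 67.2 in DMSO 3, 63.8 in tunicamycin 1, 61.7 in tunicamycin 2 and 63.5 in tunicamycin 3. The medians of the other regions were 43.2, 40.2, 38.7, 40.5, 42.1 and 40.6 in the same order. The difference was 22.5 percentile points ± 4.24 (SD, n = 6 libraries) and was positive in 6 of 6 libraries (two-sided exact sign-flip permutation test, p = 0.031, the smallest that 6 libraries allow).

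The gap moved with the length of the peak list. It was 16.1 points in DMSO 1, which had 62478 peaks, and rose through tunicamycin 2 (19.6, 56865 peaks), tunicamycin 3 (22.9, 47789), tunicamycin 1 (23.3, 44952) and DMSO 2 (24.4, 38217) to 28.5 in DMSO 3, which had 28501. Read depth is unknown from peak lists, and its part in this order was not tested. Ranked among all peaks of the list instead, members had median percentiles from 75.9 (DMSO 3) to 85.0 (tunicamycin 2), and the other shared regions from 52.7 to 76.6. Members held between 15.4% (DMSO 1) and 33.8% (DMSO 3) of all peaks in a list.

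**Figure D1:**
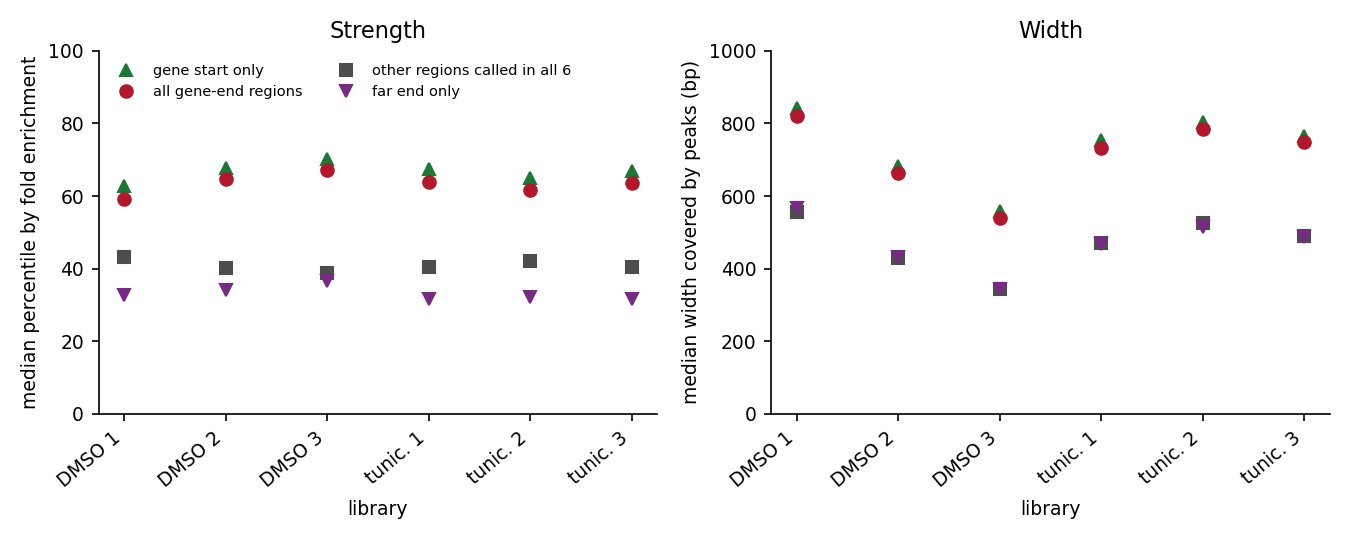
Median percentile of fold enrichment (left panel, among 20810 regions called in all 6 libraries) and median width in bp (right panel) of members and of the other regions, one point per library. Members lie above the other regions in every library, and both widths are smallest in DMSO 3 (539 and 343 bp).

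Extremes of the ranking were uneven as well. Above the 90th percentile in all 6 libraries lay 628 regions, of which 512 (81.5%) were members, and 413 of these were at gene starts only and 2 at far ends only. Below the 10th percentile in all 6 libraries lay 353 regions, of which 124 were members.

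Members were also wider. The base pairs covered by peaks in a member had medians of 821 bp in DMSO 1, 664 in DMSO 2, 539 in DMSO 3, 732 in tunicamycin 1, 784 in tunicamycin 2 and 748 in tunicamycin 3. The other regions had 557, 429, 343, 472, 526 and 489 bp. The difference of medians was 245 bp ± 26.3 (SD, n = 6 libraries), with 196 bp as its lowest and 264 bp as its highest value (exact sign-flip permutation test, p = 0.031). A wide region is more likely to reach within 1 kb of a gene end, but with the distance measured from the summit the difference was 244 bp. A single peak covered 92.5 to 95.3% of members, depending on the library. Merged over libraries, members had a median width of 942 bp, with 507 bp at the 5th and 1527 bp at the 95th percentile of members.

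Width and strength were related without being the same thing. Ordered by median width in 5 equal groups, members had median widths of 423, 597, 727.5, 864.5 and 1098.5 bp, and median percentiles of 35.2, 62.9, 71.5, 74.2 and 64.1. The widest group was thus below the group before it. Spearman's rho between width and percentile over members, given as a description within each library, ran from 0.0748 in DMSO 1 to 0.459 in DMSO 3.

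Gene starts and far ends differed. Members at starts only had median percentiles of 62.6, 67.8 and 70.3 in DMSO 1 to 3 and 67.5, 65.1 and 67.0 in tunicamycin 1 to 3. Members at far ends only had 32.6, 34.2 and 36.6 in DMSO and 31.5, 32.3 and 31.7 in tunicamycin. The difference, 33.6 points ± 2.11 (SD, n = 6 libraries), was at least 30.0 in each library (exact sign-flip permutation test, p = 0.031). Far-end regions were also narrow, with median widths from 345 to 567 bp, close to those of the shared regions away from gene ends. Members near both a start and a far end had median percentiles from 48.9 to 65.3.

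Members at divergent starts ranked above those at single starts. Their median percentile was 66.7, 74.4 and 78.5 in DMSO 1 to 3 and 73.4, 70.7 and 72.5 in tunicamycin 1 to 3, against 61.6, 66.5, 68.7, 66.0, 63.8 and 65.9 for single starts. The difference was 7.29 points ± 1.57 (SD, n = 6 libraries), positive in 6 of 6 libraries (exact sign-flip permutation test, p = 0.031, a test added after seeing the data). Divergent regions were wider too, with medians from 652 to 946 bp against 544.5 to 827 bp. A wide region reaches another start more easily, and the part of width in these differences was not tested.

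The members picked for the highest minimum percentile over the 6 libraries are given as a description, since the choice itself fixes high ranks in every library. Nckap1l, which encodes the hematopoietic HEM1 subunit of the WAVE actin complex, had a region at chr15:103453465-103454134 at percentiles of 99.9, 99.7 and 99.9 in DMSO 1 to 3 and 99.8, 99.9 and 99.8 in tunicamycin 1 to 3. Lars2, the mitochondrial leucyl-tRNA synthetase gene, had one at chr9:123461715-123462263, 412 bp from its far end, at 99.8, 99.8, 99.8, 99.7, 99.9 and 99.9. Its width stayed between 516 and 544 bp, whereas that of Nckap1l ran from 437 bp in DMSO 3 to 670 bp in DMSO 1. The other members with the highest minimum over libraries were at Wdr19, Cdc25c (a cell cycle phosphatase), Prpf8, the Golph3l and Hormad1 pair, Ints3 (a subunit of the Integrator complex) and Tdrkh (a piRNA pathway protein), and their mean percentiles lay between 99.5 and 99.9.

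At the other end, the members with the lowest minimum ranked near 0 in nearly all libraries. Zfp36 had percentiles of 0.0240, 0.591 and 0.0577 in DMSO and 0.0240, 0.0288 and 0.0192 in tunicamycin. A region 535 bp from the far end of Nr4a1, which encodes an orphan nuclear receptor of the immediate early response, had 0.0384, 0.0913, 0.0481, 0.0865, 0.0625 and 0.0288, though it was wide, with a median of 843 bp. Ehbp1l1 and the far end of Mlycd, which encodes malonyl-CoA decarboxylase, had mean percentiles of 0.285 and 1.26. These ranks rest on fold enrichment: ranked by the authors' −log10 p instead, Zfp36 had a mean percentile of 21.5 and Nr4a1 3.48.

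The widest members were promoters of moderate or low rank. Lbh, which encodes a transcriptional cofactor, had a region covered over 2235, 2235 and 1475 bp in DMSO 1 to 3 and 2196, 2116 and 2068 bp in tunicamycin 1 to 3, with a mean percentile of 42.9. The region shared by the divergent genes Cbx3 (heterochromatin protein 1 gamma) and Hnrnpa2b1 (an RNA-binding protein) had a median width of 2104 bp and a mean percentile of 30.1. Crlf2 (a cytokine receptor chain, 2101 bp) and Setd7 (a lysine methyltransferase, 2097.5 bp) had mean percentiles of 10.3 and 13.8. By −log10 p these 4 ranked higher, at 71.7, 68.9, 67.1 and 40.7. The narrowest members, at Fibp, Tmsb10, Meak7 and Hmg20b, had median widths of 225, 220, 216.5 and 216 bp and mean percentiles from 1.60 to 8.38.

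Values at the distance limit are given as a description. Inside, at 1000 bp, were regions near Fbxo7, Sinhcaf and Trim13, with mean percentiles of 75.01, 7.70 and 77.8. Outside, at 1001 to 1002 bp, were Clcn2, Runx3 and Sipa1l2, with 0.966, 5.08 and 6.63. The 110 shared regions at 900 to 1000 bp had a median percentile of 33.3 and the 98 at 1001 to 1100 bp one of 34.7, while the 7711 that held a gene end had 66.1.

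Summits, the positions of highest signal, centred near the annotated transcription start, though the rule itself kept members within 1 kb of a gene end. Over the 5578 members at 1 gene start, the median summit lay 10 to 13 bp before the annotated start in each of the 6 libraries. The spread around that median was wider: the 25th percentile of members ran from -72 to -65 bp and the 75th from 91.8 to 104 bp. Within 100 bp of the start lay 58.9, 56.2 and 56.3% of summits in DMSO 1 to 3 and 58.3, 58.1 and 58.6% in tunicamycin 1 to 3. The 300-base promoter window held 63.0 to 64.8% of summits.

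**Figure D2:**
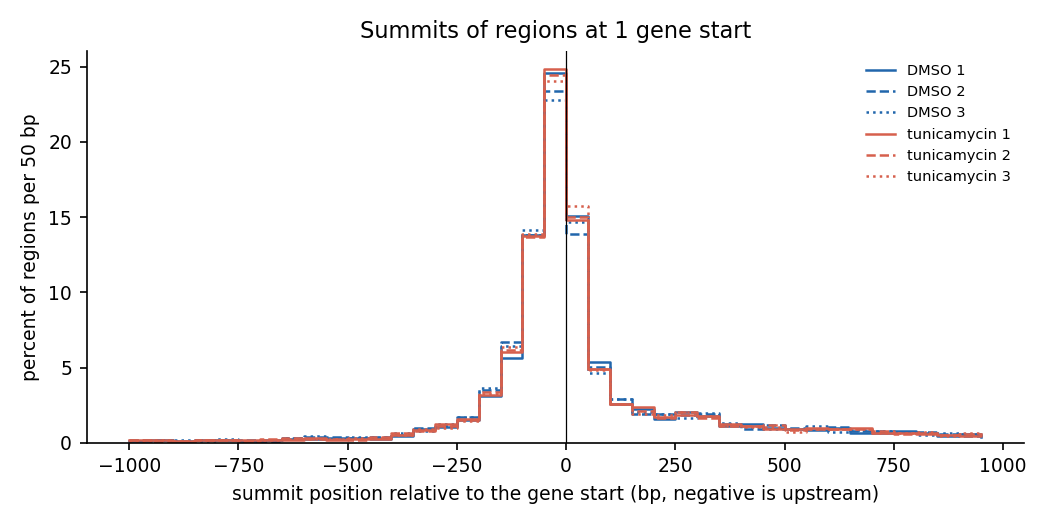
Position of the strongest summit relative to the gene start (x axis, bp, negative upstream) as percent of 5578 regions per 50 bp (y axis), one line per library. All 6 lines peak in the 50 bp before the start and nearly coincide.

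The same base positions recurred from library to library. The 6 summits of a member spanned a median of 65 bp, against 74 bp in the other shared regions, and 67.8% of members had all 6 within 100 bp, against 66.2%. Any pair of libraries placed the summits of members a median of 16 to 24 bp apart. Pairs from the same group averaged 19.5 bp and pairs across groups 19.7 bp, a difference of -0.167 bp (one-sided exact permutation test, p = 0.40, smallest possible 0.10). Correlations of percentiles over members, which share regions and are given as a description, ran from 0.727 (DMSO 1 with DMSO 3) to 0.897 (tunicamycin 2 with tunicamycin 3) within groups and from 0.792 to 0.885 across groups.

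In sequence, member promoters were richer in GC and CpG than promoters at large. Members held 8313 promoters of 7338 genes, of the 21262 promoters in the table. Their median GC content was 62.0% against 56.3% for all promoters, and the ratio of observed to expected CpG was 0.806 against 0.567. That ratio exceeded 0.6 in 81.7% of member promoters, in 47.6% of all promoters and in 12.3% of the 9113 promoters that lay in no region of any library. Over 5 equal groups of member promoters, from weakest to strongest, it was 0.768, 0.816, 0.818, 0.822 and 0.804.

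Most of the motifs of ubiquitous factors had a larger share in member promoters than in all promoters. Letters were searched on both strands, and a match describes the sequence only. Member promoters were richer in GC and CpG, and the part of base composition in these shares was not tested. The GC box GGGCGG was in 70.4% of member promoters and 46.2% of all promoters. The ETS letters CCGGAAG were in 22.6% and 11.6%, the NRF1 palindrome in 2.57% and 1.33%, the YY1 letters AAGATGGC in 5.62% and 3.05%, the cyclic AMP element TGACGTCA in 3.93% and 2.23%, and the E-box CACGTG in 11.4% and 7.84%. The TATA letters TATAAA went the other way, at 5.85% against 12.6%, with 21.1% in promoters of no region. So did the AP-1 letters TGANTCA, at 3.68% against 6.99%, and the GATA letters GATAAG, at 4.20% against 6.92%. The interferon response letters, GAAA repeated after a spacer of 2 bases, were in 2.85% and 3.35%.

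Of the motifs searched, the CCAAT box differed most in share between weak and strong members. The letters CCAAT were in 40.7% of member promoters and 38.2% of all, but from the weakest to the strongest group of member promoters the share was 27.2, 30.6, 36.2, 47.4 and 62.0%. For the ETS letters it was 14.4, 21.8, 23.3, 25.3 and 28.0%, and for the GC box 71.1, 66.8, 68.4, 72.3 and 73.2%. The 2880 regions whose promoter held a CCAAT box had a median percentile of 76.4 and those without one 60.0. In single libraries the regions with a CCAAT box had medians of 72.4 in DMSO 1, 79.5 in DMSO 2, 81.2 in DMSO 3 and 77.4, 75.5 and 77.3 in tunicamycin 1 to 3. Regions with a TATA match had a median of 60.8.

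**Figure D3:**
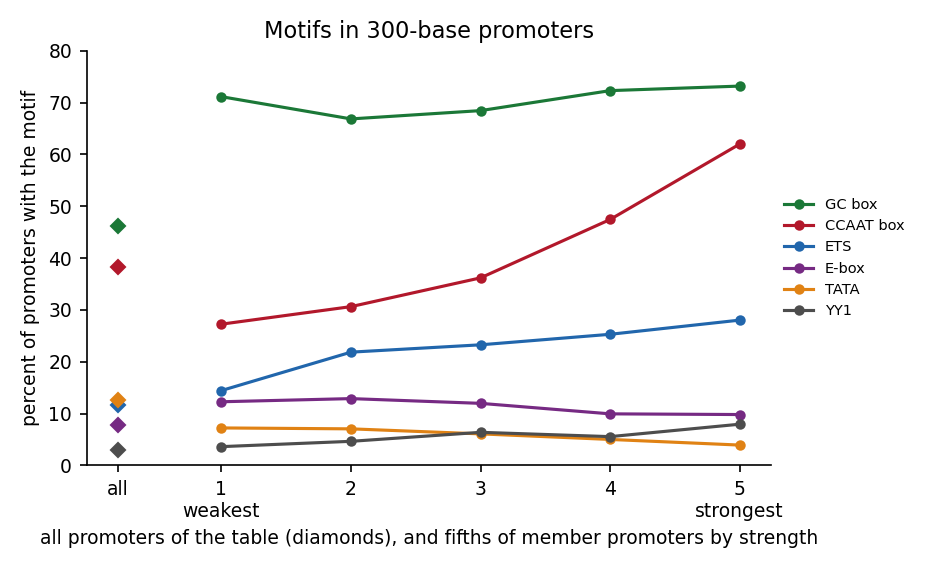
Percent of 300-base promoters with each motif (y axis) over all 21262 promoters (diamonds) and in 5 equal groups of member promoters ordered by mean percentile (x axis, weakest to strongest). The CCAAT line climbs from 27.2 to 62.0%, while the GC box line stays between 66.8 and 73.2%.

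By gene family, members covered the genes that every cell needs and few of the genes of specialised cells. The families were set by symbol pattern or list and are described by counts beside the 45.5% of all protein-coding genes. A member was found at 26 of 26 RNA polymerase subunit genes, 8 of 8 genes of the CCT chaperonin, 35 of 37 aminoacyl-tRNA synthetase genes, 73 of 78 cytosolic ribosomal protein genes, 63 of 69 splicing factor genes, 35 of 39 proteasome genes and 73 of 92 genes of the respiratory chain. In contrast, 3 of 1110 olfactory receptor genes, 2 of 355 vomeronasal receptor genes, 1 of 109 keratin genes, 0 of 71 defensin genes and 13 of 99 cytochrome P450 genes had one. Developmental factors lay between, with 8 of 39 Hox, 14 of 44 Fox and 4 of 19 Sox genes.

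**Figure D4:**
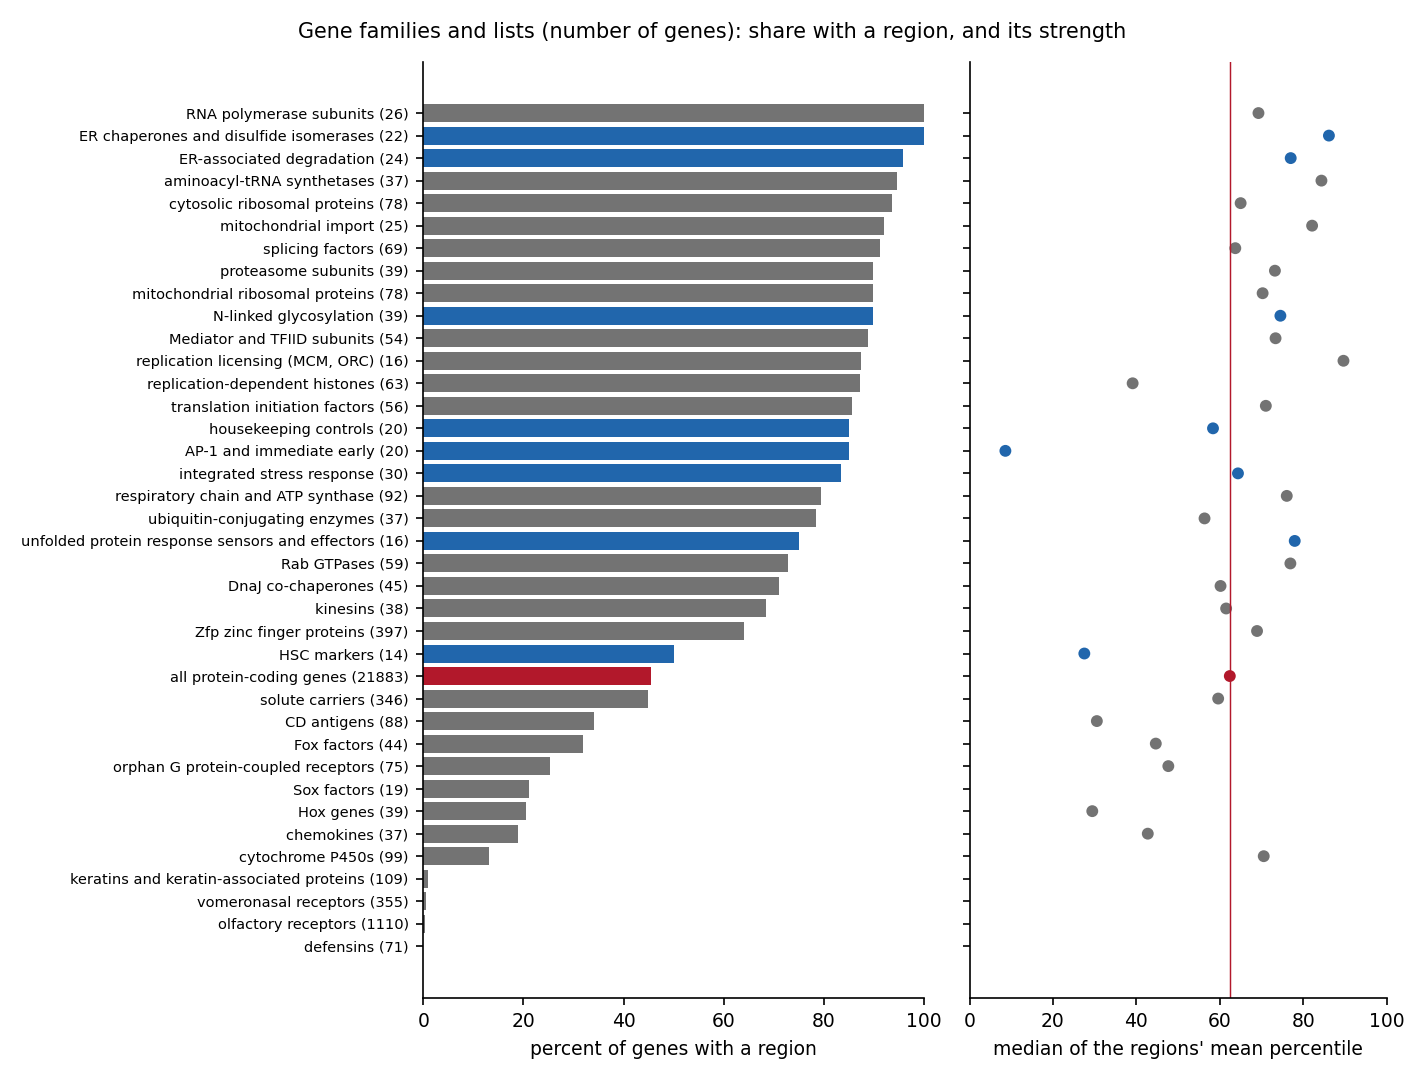
Percent of the genes with a member (left, bars from 0) for each family of at least 14 genes, with the number of genes in brackets. Points on the right give the median of the mean percentile of their regions, for families with at least 5 regions. Smaller families and lists are not drawn. The red bar and line give all protein-coding genes, at 45.5% and 62.4.

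Families in which most genes had a member differed in strength. Replication licensing genes (14 of 16 with a member) had a median percentile of 89.6, with Mcm10 highest at 97.7 and Mcm2 lowest at 40.9. Aminoacyl-tRNA synthetases had 84.3, mitochondrial import 82.1, the respiratory chain 76.0 and cytosolic ribosomal proteins 65.0, against 62.4 for all members. Replication-dependent histone genes had members at 55 of 63 genes but a median of 39.1, and 33 of their 37 regions were below the median of all members. On the −log10 p scale the histone median was 64.2, near the 65.7 of all members.

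Within families the spread was wide. Rpl15 had percentiles of 98.1, 94.7 and 93.6 in DMSO and 96.5, 98.2 and 95.8 in tunicamycin. It encodes a protein of the large ribosomal subunit, and its family ran from a mean percentile of 7.996 to 96.2 over 80 regions. Polr3k, a subunit of RNA polymerase III, ranked between 97.9 and 99.9 in all libraries, while Polr2l, a subunit shared by the nuclear polymerases, ranked between 0.120 and 15.9.

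Immediate early genes had wide regions of low rank. A member was found at 17 of 20 AP-1 and immediate early genes, and the median percentile of their 25 regions was 8.59, with all 25 below the median of all members. Their median width of 783.5 bp exceeded the 727 bp of all members. Junb, a subunit of AP-1, had percentiles of 0.903, 0.577 and 5.37 in DMSO and 0.428, 0.682 and 1.51 in tunicamycin at the strongest of its 3 regions. Fosl1 had the highest region of the list, at 52.2, 46.6, 54.0, 58.7, 43.5 and 41.1. On the −log10 p scale the list's median was 38.4.

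Genes of ER protein folding were complete and strong. A member was found at all 22 ER chaperone and disulfide isomerase genes, and their 23 regions had a median percentile of 86.1 and a median width of 938 bp. Hspa5 had percentiles of 78.7, 94.4 and 96.8 in DMSO 1 to 3 and 88.7, 77.2 and 81.0 in tunicamycin 1 to 3. The groups overlapped, and the DMSO values spanned more than the tunicamycin values. Ppib, the ER cyclophilin, had 99.4, 97.9 and 96.7 in DMSO and 96.0, 94.6 and 92.9 in tunicamycin, without overlap. Txndc5, a disulfide isomerase, was lowest of the genes at 36.4, 49.5, 47.8, 42.2, 42.8 and 50.4.

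The rest of the ER machinery followed the same pattern. Of 24 genes of ER-associated degradation 23 had a member, with a median percentile of 77.0. Sel1l, the partner of the HRD1 ligase, was highest at 99.0, 99.4, 99.6, 99.7, 99.9 and 99.5, and Edem1 had no member, though its promoter lay in a shared region more than 1 kb from the ends of its gene span. Of 39 genes of N-linked glycosylation, the process that tunicamycin blocks, 35 had a member. Dpagt1, which encodes the enzyme that tunicamycin inhibits, shared a region with H2ax that had percentiles of 67.2, 93.7 and 93.2 in DMSO and 89.99, 75.4 and 88.5 in tunicamycin, with overlap between groups.

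The sensors of the unfolded protein response were mostly present. Of 16 sensor and effector genes 12 had a member, with a median percentile of 77.9. Ern1 had 58.5, 82.1 and 96.6 in DMSO and 87.0, 81.0 and 88.5 in tunicamycin, and Eif2ak3 had 89.5, 94.9, 94.6, 98.3, 93.1 and 96.9. Xbp1, whose mRNA IRE1 splices, had 77.8, 87.3, 85.6, 71.3, 63.6 and 79.1. All 3 overlapped between groups. The 4 without a member were Atf6 and Mbtps2 (the site-2 protease that cleaves ATF6), each with a gene-end region called in 5 libraries, and Creb3l3 and Creb3l4, with none in any library. Bbc3, which encodes the pro-apoptotic protein PUMA, had the lowest region, at a mean percentile of 0.742.

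Of 30 genes of the integrated stress response, the branch below PERK and the other eIF2 kinases, 25 had a member and the median percentile was 64.3. Atf4 had percentiles of 71.5, 90.9 and 88.2 in DMSO and 85.1, 68.6 and 62.8 in tunicamycin, and Ddit3 (CHOP) had 13.3, 38.8, 48.0, 33.2, 31.7 and 33.9. In both the groups overlapped. Chac1 had 24.9, 10.3 and 11.8 in DMSO and 48.8, 47.1 and 50.3 in tunicamycin, without overlap. Its normal score of the rank was higher by 1.01 (SE 0.30, limma, unadjusted p = 0.00432, adjusted p = 0.996). It was the only region of the 26 in this list with an unadjusted p under 0.05, beside 4.35% of all shared regions, and it was singled out after its values were seen.

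The ERSE letters, which include a CCAAT box, were rare and lay mostly at strong regions. They occurred in 0.168% of member promoters, 0.141% of all promoters and 0.165% of promoters in no region of any library. The 14 member promoters lay in 13 regions. The genes were Derl3, Canx, Dnajc3, Pdia6, Ero1b, Creld2 with Alg12, Pan2, Hspa5, Calr, Syvn1, Hnrnpa3, Hsp90b1 and Adcy3. The 13 regions had a median percentile of 86.6, with Derl3 highest at 98.3 and Adcy3 lowest at 45.1. All member regions with a promoter had 67.2, and those with a CCAAT box 76.4. Syvn1, Hnrnpa3, Hsp90b1 and Adcy3 lay below 67.2. In 0 of the 13 were the groups without overlap, beside 4.66% of all shared regions that were higher and 4.55% that were lower after tunicamycin without overlap, and limma gave 0 with an unadjusted p under 0.05. Canx, the second promoter of the first set, had percentiles of 87.2, 98.5 and 99.4 in DMSO and 96.1, 98.1 and 94.9 in tunicamycin.

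Markers were used to check the labelled cell type. Of 14 HSC marker genes 7 had a member, with a median percentile of 27.5 over 9 regions. Mean percentiles in this list ran from 2.10 (Hoxa9) to 87.5 (Ctnnal1). Kit, the stem cell factor receptor of the LSK gate, had percentiles of 38.0, 76.4 and 58.9 in DMSO and 59.3, 56.6 and 42.0 in tunicamycin, and Hlf, an HSC transcription factor, had 24.6, 43.0, 57.3, 45.5, 41.5 and 50.3. Of the genes for the sorted surface proteins, Slamf1 (CD150) had a gene-end region in 1 library and Ly6a (Sca-1) in none. Counts of gene-end regions leave out regions over 1 kb from the outermost ends of a gene. Members also lay at genes of other cell types: 2 of 9 genes of lineage or gate proteins (Cd48 and Ptprc, the CD45 gene that HSCs express too), 2 of 6 erythroid, 2 of 6 megakaryocyte, 1 of 10 neutrophil and monocyte, 3 of 9 lymphoid, 1 of 7 macrophage and 3 of 8 stroma and endothelium genes. Median percentiles of these lists, in the same order, were 30.8, 57.9, 34.2, 16.3, 17.3, 16.8 and 34.1, over 1 to 4 regions each. The HSC list lay below the gate, erythroid, megakaryocyte and stroma lists, and above the others.

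In bulk libraries, fewer cells of a type and less signal per cell cannot be told apart. Of the defining genes of mature cells, stroma and endothelium, Ly6g, Hba-a1, Hbb-b1, Alas2, Ppbp, Elane, S100a8, Ngp, Camp, Pax5, Rag2, C1qa, Marco, Lepr and Pdgfra had a gene-end region in 0 libraries, while Mpo, Cd3e, C1qc and Col1a1 had one in 5. Cd48, against which the cells were sorted, had a member at percentiles of 18.1, 32.2 and 3.63 in DMSO and 15.5, 31.6 and 22.1 in tunicamycin. As a control list, 17 of 20 housekeeping genes had a member, at a median percentile of 58.4. The part of other cell types in the members was not tested.

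Emp1, the gene named in the series title, encodes a tetraspan membrane protein of the PMP22 family and had no member. Its gene-end region, chr6:135362605-135363058, lay 55 bp from the gene end and was called in 5 libraries, all except tunicamycin 1, at percentiles of the whole list from 10.2 (tunicamycin 3) to 45.0 (DMSO 3). A region 1618 bp from the gene end, chr6:135364168-135364785, was called in all 6, at percentiles of 52.7, 48.1 and 34.8 in DMSO and 80.8, 79.4 and 49.4 in tunicamycin, which overlapped. Another region called in all 6, chr6:135377494-135378081, lay 5092 bp from the gene end, at percentiles of 32.7, 8.57 and 48.1 in DMSO and 7.25, 22.5 and 7.67 in tunicamycin, which overlapped as well. Of the 5 genes of the family, Emp3 and Lim2 had members. The Lim2 region, chr7:43436385-43437172, was shared with Nkg7, a gene of the lymphoid list.

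The tunicamycin and DMSO libraries overlapped in the median percentile of members. The median percentile of members was 63.0 ± 1.12 (SD, n = 3) in tunicamycin and 63.7 ± 4.06 (SD, n = 3) in DMSO, a difference of -0.707 points (two-sided exact permutation test, p = 0.80). The smallest p that 3 against 3 libraries allow is 0.10. The DMSO libraries enclosed the tunicamycin libraries, with DMSO 1 lowest and DMSO 3 highest. Without DMSO 3 the difference was 1.35 and without DMSO 1 it was -2.91, so leaving out DMSO 3 turned its sign.

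Widths overlapped between the groups. Median widths of members were 755 ± 26.6 bp (SD, n = 3) in tunicamycin and 675 ± 141 bp (SD, n = 3) in DMSO, a difference of 80 bp (exact permutation test, p = 0.50). It was 14.7 bp without DMSO 3 and 152 bp without DMSO 1. Far-end members had a median percentile of 31.8 ± 0.395 (SD, n = 3) in tunicamycin and 34.5 ± 1.98 (SD, n = 3) in DMSO, without overlap between the groups (difference -2.66, exact permutation test, p = 0.10). For start members the difference was -0.386 (p = 0.80, exact permutation test). The start and far-end comparisons between groups were not planned. Of the many measures compared between the groups in this way over all 6 libraries, the far-end percentile alone showed no overlap.

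Region by region, 0 of 9075 members passed an adjusted p of 0.05 with limma on normal scores of the rank, and 0 of all 20810 shared regions did (0% called). The smallest adjusted p was 0.889 among members and 0.541 among all. In simulated data limma called 0 of 200 regions shifted by 1 normal score and 69% of those shifted by 2. Changes near 1 in the normal score can thus be missed. At an unadjusted p under 0.05 were 231 members (2.55%), 129 higher and 102 lower after tunicamycin, beside 4.35% of all shared regions (2.36% higher, 1.99% lower). The groups did not overlap for 390 members that were higher after tunicamycin (4.30%, beside 4.66% of all shared regions) and for 374 that were lower (4.12%, beside 4.55%). The shares without overlap were near the background. With members ranked among themselves alone, 371 (4.09%) had an unadjusted p under 0.05. Without DMSO 1 the members at an unadjusted p under 0.05 numbered 743 (8.19%, beside 10.3% of all shared regions). Without tunicamycin 2 they numbered 145 (1.60%, beside 2.99%). Adjusted calls were 0 in both cases.

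Members moved less than the other shared regions. The median absolute difference between group means was 5.10 percentile points for members and 6.89 for the others, and 23.7% of members differed by over 10 points, against 34.4%. From the 5th to the 95th percentile of members the difference ran from -15.0 to 14.9 points. The SD over the 3 libraries of a group had a median of 9.97 in DMSO and 6.63 in tunicamycin for members, and of 12.4 and 8.94 for the others. These were not tested.

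**Figure D5:**
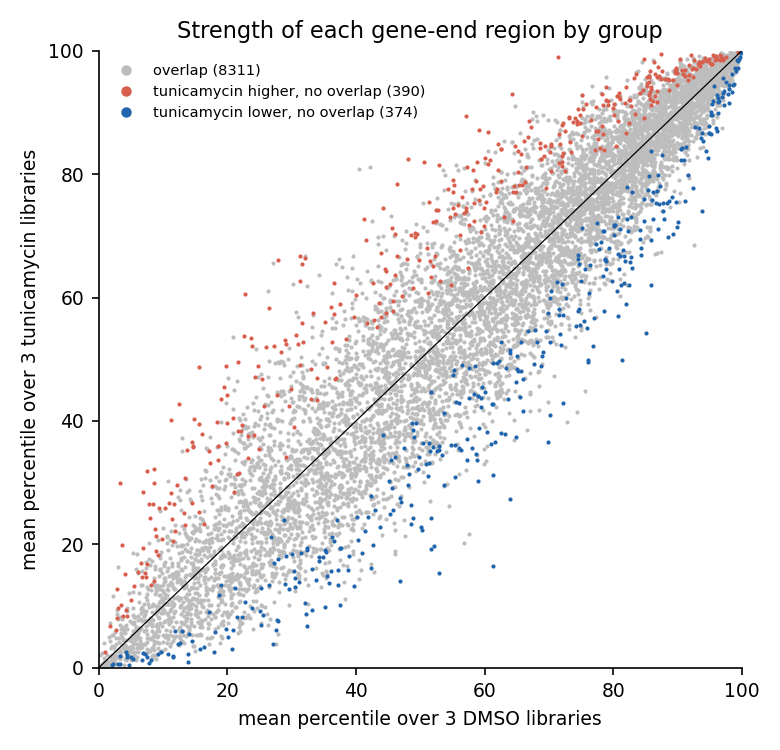
Mean percentile over 3 DMSO libraries (x axis) against 3 tunicamycin libraries (y axis) for each of 9075 members, with the line of equality. Grey points overlap between groups, 390 red points are higher and 374 blue points lower in all tunicamycin libraries.

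Among members without overlap, the 6 with the largest rise in the normal score of the rank are given first, and in percentile points other members, such as Chac1 with 33.0, differed by more. Tnfrsf22, which encodes a decoy receptor for TRAIL, had percentiles of 95.3, 89.6 and 77.2 in DMSO and 99.8, 99.2 and 99.4 in tunicamycin (score difference 1.39, SE 0.33, limma adjusted p = 0.889), the smallest p among members. Smad5, a transcription factor of BMP signalling, had 5.93, 0.682 and 3.41 in DMSO and 21.8, 48.8 and 19.2 in tunicamycin. The promoter of 2610002M06Rik had 96.3, 85.9, 32.1, 98.2, 99.3 and 99.6, so that most of its difference came from DMSO 3. Tgm1 (a transglutaminase), Trim21 (an antibody-binding ubiquitin ligase) and Sntb2 (a syntrophin) differed by 30.3, 13.9 and 25.4 points. Each of the 6 had an adjusted p of at least 0.889.

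Among the largest falls in the normal score, Aadat, which encodes a mitochondrial aminotransferase, had percentiles of 67.2, 66.6 and 50.1 in DMSO and 1.36, 17.96 and 30.3 in tunicamycin. A region near Gramd2 and Pkm (pyruvate kinase) had 41.6, 56.5, 60.4, 21.5, 12.5 and 11.9. Gm10499, Sash3 (a lymphocyte adapter) and Mymk (the muscle fusion protein myomaker) differed by -12.8, -25.6 and -32.8 points. These 5 regions had an adjusted p of 0.996 with limma, so none of them can be told from the spread between libraries over this many regions.

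In the stress lists, regions without overlap were counted beside the 4.66% of all shared regions that were higher and the 4.55% that were lower. Among 23 ER chaperone regions 2 were higher and 2 lower without overlap (Sil1 by 7.31 and the region shared by Dnajc3 and Uggt2 by 16.5 points among the higher, Ppib by -3.52 and Dnajc10 by -8.83 among the lower), among 23 of ER-associated degradation 1 was higher (Faf2, 16.0 points) and 0 lower, among 26 of the integrated stress response 2 were higher (Chac1 and Eif2ak1, the latter by 6.1997) and 0 lower, and among 12 of the sensors and effectors there were none. Among 39 regions of N-linked glycosylation 2 were higher and 1 lower. The median differences of the 5 lists, in this order, were -1.54, -1.75, -2.34, -0.79 and 0.827 points, beside -0.324 for all members.

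In the AP-1 and immediate early list the median difference was -5.10 points, and 4 of 25 regions had an unadjusted p under 0.05, beside 4.35% of all shared regions, with 0 adjusted. Egr1, an early zinc finger factor, had 1.68, 10.8 and 10.9 in DMSO and 0.735, 1.17 and 0.255 in tunicamycin, and Egr3 had 16.1, 24.5, 41.9, 13.1, 1.55 and 3.599. Both were without overlap (limma, unadjusted p = 0.0104 and 0.00722, adjusted 0.996). The other 2 were a region of Ier3 with a difference of -14.2 and one of Fosl1 with a difference of 6.54. In DMSO 1 alone the list's median was 3.83 and in DMSO 3 19.3, a wider gap than that between the groups. These genes were singled out after their values were seen.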

How the data were processed

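ATAC-seq peak lists of 6 libraries, 1 list per library, were used as deposited. The submitters' processing notes name mm10 as the build and, as tools, MACS2, featureCounts, Picard, Bowtie2 2.2.9 and Trim Galore 0.4.4. For the calling threshold and any shift of reads, the sources used here give nothing. Each deposited peak has a display score, the authors' fold enrichment (a ratio), the authors' −log10 p-value and −log10 q-value, and a summit offset in bp (other values). Depth is unknown, so list length (28501 to 62478 peaks) is the only guide to it, and fold enrichment was used only for ranks within a list. Peaks on other sequences (109 to 138 per list) were left out.

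Merging used peaks of the autosomes, X and Y. Width is the bp covered by a library's peaks in a region. Ranks were turned into percentiles, and into normal scores for limma 3.58.1 (R 4.3.3) with Benjamini-Hochberg adjustment over all 20810 shared regions. Single values were tested by exact permutation or sign-flip over libraries. The limma step was run on simulated data with 200 changed regions among 20810. It recovered 0% of them at a normal score shift of 1, 69% at 2 and 86.5% at 3. Strand and promoters came from the RefSeq promoter table (GRCm38.p6), gene ends from its gene table. Ly76 and Trbc1 had no match by symbol.

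Named were Emp1, the 8 members with the highest and 4 with the lowest minimum percentile, the 4 widest and 4 narrowest, the 6 largest rises and 6 largest falls without overlap, the 3 regions on each side of the distance limit, and up to 3 genes per family (highest, middle, lowest). Other genes were chosen after their values were seen, and a few genes under the rule are not reported here. The members and lists were chosen with earlier results of these data known. Alternatives were other q-value, distance, cover and rank settings, lists of equal length, and leaving out each library.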

Additional observations from a re-analysis of the deposited data

How the results depend on the processing

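The difference in member percentile between groups changed sign, to 0.694 when ranked by −log10 p, 3.36 within the whole list and 1.35 without DMSO 3 (-2.91 to 1.35 over libraries left out). Its exact permutation p could not fall below 0.10 in any setting, so no setting could pass 0.05. Without DMSO 1 it was 0.10, the smallest possible. The width difference between groups ranged from 14.7 to 151.7 bp with 1 library left out. Without DMSO 1, where it was largest, its exact permutation p was 0.10 as well. The members numbered 9076 to 10332 with 1 library left out and 5775 where peaks had to cover 50% of a region in each library. With 1 library left out, members exceeded other shared regions by 22.5 to 23.9 percentile points and 240.4 to 273.1 bp, and starts exceeded far ends by 33.4 to 34.0 points. The exact p was then 0.0625, the smallest that 5 libraries allow. In the other settings run without a block these 3 differences had an exact p of 0.031. The summit difference between pairs within and across groups turned to 0.0556 bp with peaks of q at most 1e-05, to 0.167 bp at 2 kb, and to 1.08, 1.17 and 1.00 bp without tunicamycin 1, 2 and 3 (-2.42 to 1.17 over libraries left out). Among genes with 1 promoter 41.9% of member promoters held a CCAAT box. The count of adjusted limma calls was 0 in every setting run. Members at an unadjusted p under 0.05 numbered 145 without tunicamycin 2 (1.60%, beside 2.99% of all shared regions) to 743 without DMSO 1 (8.19%, beside 10.3%). They numbered 371 where members were ranked alone.

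Same-numbered libraries of the groups shared only a number (correlations of deviations -0.0846, -0.0140 and 0.0297). With the replicate block the 3 differences were 22.5 points, 245 bp and 33.6 points with an exact p of 0.25, the smallest that 3 pairs allow, and limma called 0 regions. The block was not run for summit distances. Depth is unknown and limits all of these, and its part was not tested.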
